A study of Homo sapiens with 4 samples.

Results

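The Notch pathway was examined through 10 genes chosen by name: the ligands JAG1, JAG2 and DLL1, the receptors NOTCH1, NOTCH2 and NOTCH3, the nuclear factors RBPJ and MAML1, and the target genes HES1 and HEY1. All 10 were found once among the 58825 genes of the deposited table. The samples were 4 RNA-seq libraries of HaCaT cells, an established human keratinocyte line, grown in MEPICF500 medium with 1.2 mM calcium and infected with lentivirus. The control group carried the shNC hairpin and the knockdown group carried shlnc-DC, which targets lnc-DC, a long noncoding transcript, with 2 libraries in each group that are labelled as biological replicates. The series set out to describe how silencing lnc-DC alters expression in keratinocytes induced to differentiate. The labels do not say how many hairpin sequences were used or whether the replicates were separate infections, and the p-values therefore cover the variation among these 4 libraries alone, which may be technical.

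In Notch signalling a ligand on a neighbouring cell pulls on the receptor, ADAM10 and then the gamma-secretase complex cut it, and the freed intracellular part enters the nucleus. There it joins the DNA-binding protein RBPJ and a Mastermind co-activator such as MAML1, and genes of the HES and HEY families, which code for transcriptional repressors, are switched on. In the epidermis NOTCH1 is known for driving basal keratinocytes out of the cell cycle and into the suprabasal layers.

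RBPJ recognises the letters TGGGAA, and the HES1 promoter is the textbook case of a head-to-head pair of such sites. RefSeq windows of 250 bases before and 50 bases after the annotated start (GRCh38.p14) were held for 8 of the 10 genes, not for DLL1 and HEY1. TGGGAA on either strand occurred in the windows of HES1 and RBPJ, and in 24.0% of all 35116 windows. The 16-base gap in HES1 between TGGGAA and a TTCACA on its right (the related site TGTGAA read on the other strand) was then searched for in all windows, after the HES1 sequence had been seen. That spaced pair was present in 3 windows, those of HES1, HES4 and ARHGAP22. The HES1 and HES4 pairs are shown because both genes are in the target list described further on; capitals mark TGGGAA and TTCACA.
HES1 pair, chr3:194136064-194136091, plus strand: TGGGAAagaaagttTGGGAAgtTTCACA
HES4 pair, chr1:1000146-1000173, minus strand: TGGGAAagaatgcggagccgggTTCACA
HES1 from 150 to 5 bases before the start, chr3:194135998-194136143, plus strand: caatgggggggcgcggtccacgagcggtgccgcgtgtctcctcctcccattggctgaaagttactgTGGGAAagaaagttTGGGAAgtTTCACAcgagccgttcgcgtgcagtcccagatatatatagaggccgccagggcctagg
The first letter of the pair lies 84 bases before the HES1 start and 76 bases before the HES4 start. The 28 letters of the 2 pairs are identical at 19 positions, of which 12 are the motif letters themselves. HES1 holds a further TGGGAA inside the pair, and nearly all of the HES4 pair falls in the first exon of a longer GENCODE 29 transcript. No protein was assayed, so a match is a description of the letters only.

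The deposited values are FPKM, fragment numbers scaled to transcript length and library size, which may be compared between genes. The targeted transcript WFDC21P, which is lnc-DC, was listed with 2.15 and 2.76 FPKM in control cells and with 0.09 and 0.29 FPKM in knockdown cells, a 12.9-fold lower mean. It too was short of the threshold used for the members (limma adjusted p = 0.0715), and it passed in 0 of 14 alternative settings. Mitochondrially encoded genes took 41.2% to 41.9% of summed FPKM in control and 26.8% to 28.1% in knockdown libraries. Summed FPKM itself was 319780 and 338424 in control and 271297 and 274976 in knockdown libraries, so these shares have unequal totals. This shift accompanies every difference given here. With mitochondrial genes left out and the total of the rest made equal, the median log2 difference of all tested genes was 0.06, against 0.09 as deposited. The median of the 9 tested members was 0.17, against 0.20 as deposited. In both settings 5 of the 9 lay above 0 and 4 below. Of 9 keratinocyte markers 7 reached 1 FPKM; KRT14 and KRT17 did not, and KRT14, a keratin that defines basal keratinocytes, was at most 0.35 FPKM. The summed keratinocyte markers ran from 729 to 782 FPKM in control and from 414 to 463 FPKM in knockdown libraries. Most of that gap came from KRT5 (means of 287 and 140 FPKM), SFN (305 and 170) and CDH3 (54.9 and 35.5). KRT6A, at a lower level (11.1 and 4.39), had the largest log2 difference of the 7, -1.14. DSP (68.8 and 62.0), PKP1 (18.8 and 17.6) and TP63 (8.44 and 7.63) differed less. None of these 7 passed the test, with limma adjusted p of 0.0747 (SFN) or more. Endothelial markers, which matter because blood vessels use Notch, summed to 3.61 to 4.58 FPKM in control and 3.94 to 6.44 FPKM in knockdown libraries, nearly all from CDH5; KDR was listed at 0 in every library and PECAM1, TEK and VWF did not exceed 0.09 FPKM. None of the 6 fibroblast and 5 melanocyte markers reached 1 FPKM, with COL1A2, TYR and SOX10 listed at 0; of the 5 immune markers CD68 and CD14 did, and PTPRC was listed at 0. The part of these shifts in the results was not tested. In bulk RNA, fewer cells of a type and less RNA per cell cannot be told apart.

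**Figure D1:**
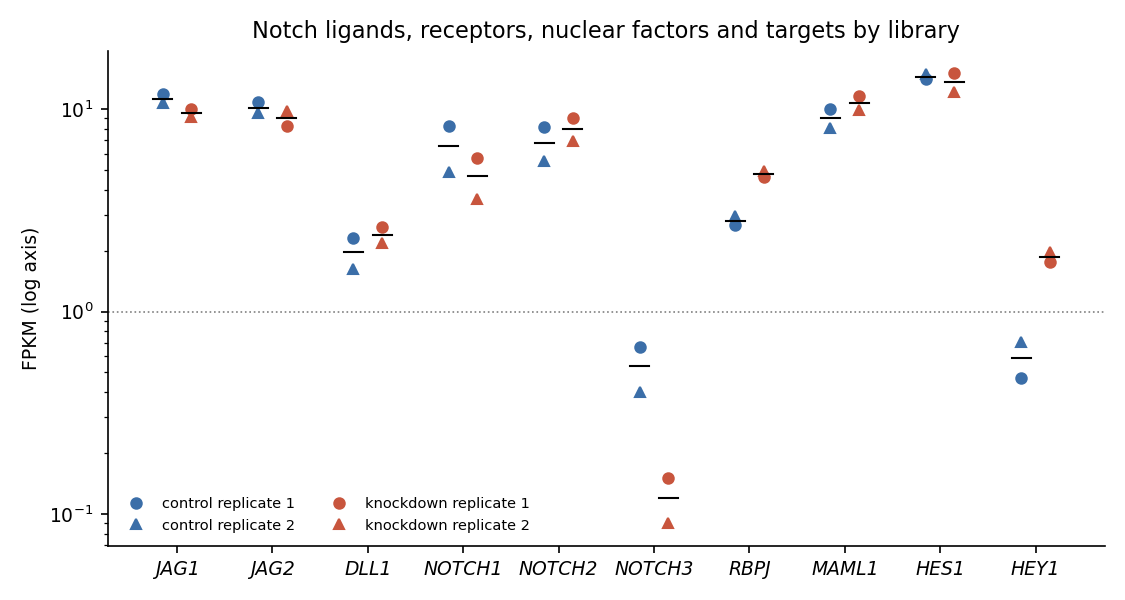
FPKM (log axis) of the 10 genes in each library; blue is control, red is knockdown, circles are replicate 1, triangles are replicate 2, and black bars are group means. The dotted line marks 1 FPKM, the filter for testing. HES1 stands highest, NOTCH3 and HEY1 lowest in control, and the red and blue ranges are apart for JAG1, NOTCH3, RBPJ and HEY1.

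HES1 was the most abundant of the 10 transcripts in both groups, and by mean level the ligands JAG1 and JAG2 came above every receptor. In the control libraries the order by mean FPKM was HES1 (14.5), JAG1 (11.2), JAG2 (10.2), MAML1 (9.03), NOTCH2 (6.84), NOTCH1 (6.54), RBPJ (2.81), DLL1 (1.97), HEY1 (0.590) and NOTCH3 (0.535). The ranges of neighbours overlapped from JAG1 through to NOTCH1 and again for HEY1 and NOTCH3, so those places in the order are not separated by the replicates. In the knockdown libraries MAML1 (10.7) came next after HES1 (13.6), and RBPJ (4.78) came level with NOTCH1 (4.67). Ranges of neighbours overlapped there from MAML1 through JAG1 and JAG2 to NOTCH2, so the replicates do not separate those places either. HEY1 (1.86) and NOTCH3 (0.120) no longer shared a range.

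No member passed the test over all genes. Knockdown and control were compared with limma on log2(FPKM + 1) over the 12411 genes averaging 1 FPKM or more in either group, at a Benjamini-Hochberg adjusted p under 0.05. Of all tested genes 0.25% were called (0.113% or 14 genes higher and 0.137% or 17 genes lower in the knockdown), against 0 of the 9 members that were tested. The split of higher and lower genes was 17 and 40 under quantile normalization and 13 and 24 under median centring. With mitochondrial genes left out and the mean total of the rest kept, it was 11 and 18. With that rest scaled to a larger fixed total, which brought 17585 genes past the filter, it was 6 and 12. With any 1 library left out 0 genes were called. NOTCH3 was below the filter and was not tested; HEY1 passed it only through the knockdown group, so being tested already required a difference. At an unadjusted p under 0.05 there were 2 members, RBPJ and HEY1, both higher, where 22.8% of all tested genes reached that level 14.8% on the higher side and 8% on the lower. The median log2 difference of the 9 members was 0.20, and 0.06 without HEY1, against 0.09 for all tested genes. Leaving out 1 library moved the median of the 9 between -0.03 (without control replicate 2) and 0.36 (without control replicate 1). Of the 9, 5 lay above 0 and 4 below, where 61.4% of all tested genes lay above and 38.6% below. Control and knockdown values were fully apart for 3 of the 9, against 54.8% of all tested genes. RBPJ and HEY1 were above (35.6% of all genes) and JAG1 below (19.2% of all genes). By unadjusted p in either direction and by separation, the members stood near or below the background.

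**Figure D2:**
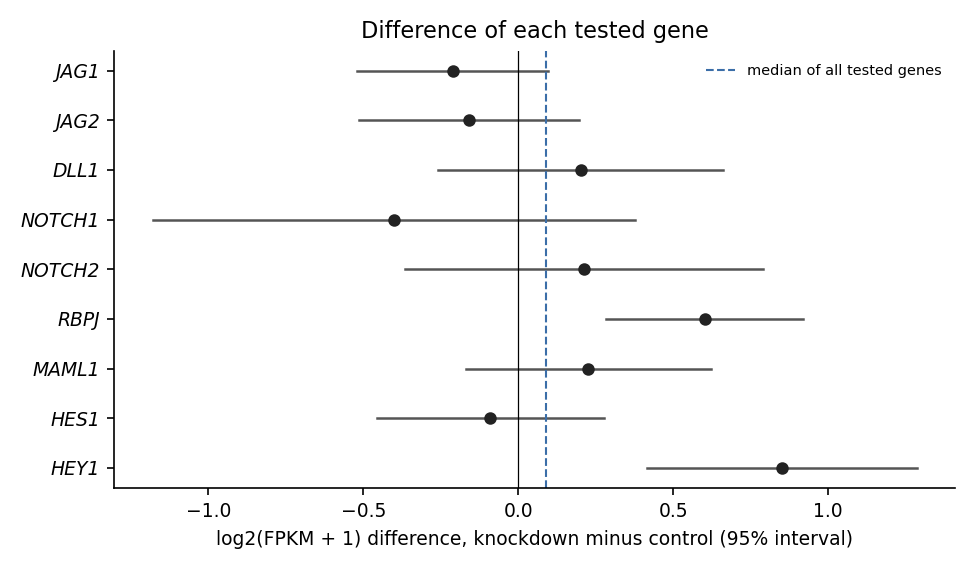
Difference in log2(FPKM + 1), knockdown minus control, for the 9 tested members (points), with the 95% interval from limma (lines). The dashed line is the median of all tested genes, 0.09. Only the intervals of RBPJ and HEY1 lie wholly above 0, and neither gene passed after adjustment.

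Among the ligands, JAG1 had 11.81 and 10.68 FPKM in control and 10.04 and 9.12 FPKM in knockdown cells. Both knockdown values lay below both control values, by a small step. The log2 difference was -0.21 (SE 0.118), with a limma adjusted p of 0.355. JAG2, the other Jagged ligand, had 10.84 and 9.52 FPKM in control and 8.29 and 9.77 FPKM in knockdown cells. Its groups overlapped, control replicate 2 being lower than knockdown replicate 2 (log2 difference -0.16, adjusted p = 0.525). DLL1, a Delta-type ligand known in skin from the clusters of basal stem cells, had 2.30 and 1.63 FPKM in control and 2.61 and 2.18 FPKM in knockdown cells, also overlapping (log2 difference 0.20, adjusted p = 0.532). With 1 library left out the differences ran from -0.28 to -0.14 for JAG1, from -0.26 to -0.05 for JAG2 and from 0.04 to 0.37 for DLL1. The summed FPKM of the 3 ligands was 24.95 and 21.83 in control and 20.94 and 21.07 in knockdown cells, with the knockdown values below. Ligands outside the 10 were near absent: DLL3 and DLK1 were listed at 0 throughout and DLL4 did not exceed 0.04 FPKM. DLK2, a non-canonical ligand known as an inhibitor of the receptors, was the exception, at 8.42 and 6.68 FPKM in control and 4.06 and 4.14 FPKM in knockdown cells (adjusted p = 0.102).

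Of the receptors, NOTCH1 and NOTCH2 made up almost all of the RNA. NOTCH1 had 8.21 and 4.87 FPKM in control and 5.72 and 3.61 FPKM in knockdown cells. The groups overlapped, because replicate 1 stood well above replicate 2 in both (log2 difference -0.40, SE 0.297, 95% interval -1.18 to 0.38, adjusted p = 0.467). That difference was -0.08 without control replicate 1, -0.13 without knockdown replicate 2, -0.67 without knockdown replicate 1 and -0.73 without control replicate 2. NOTCH2 had 8.16 and 5.52 FPKM in control and 9.05 and 6.96 FPKM in knockdown cells, overlapping as well (log2 difference 0.21, SE 0.220, adjusted p = 0.600). Its sign turned to -0.03 without control replicate 2. The intervals of both receptors leave room for changes in either direction. NOTCH2NLA, a partial copy of NOTCH2, was listed at 4.08 and 3.59 FPKM in control and at 4.46 and 0 in knockdown cells, so the division of reads between it and NOTCH2 is uncertain.

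The ratio of the receptors separated the groups where neither level did. Within each library, NOTCH1 over NOTCH2 was 1.01 and 0.882 in control and 0.632 and 0.519 in knockdown cells. Every knockdown ratio was below every control ratio. The log2 ratio averaged -0.09 ± 0.134 in control and -0.80 ± 0.202 in knockdown cells (SD, n = 2 per group), a difference of -0.72, and -0.86 to -0.58 with any 1 library left out. It was 1 of 6 ratios computed, all chosen after the values had been seen, and all but JAG1 over JAG2 separated the groups. Among single tested genes, 54.8% had groups fully apart. The exact two-sided permutation test gave p = 0.333, the smallest that 2 libraries against 2 allow, and 0.400 after adjustment over the 6. A ratio does not show which receptor differed. The uncertain division of reads between NOTCH2 and NOTCH2NLA, which was listed at 0 in knockdown replicate 2, applies to this ratio too. For comparison, JAG1 over JAG2 was 1.09 and 1.12 in control and 1.21 and 0.933 in knockdown cells, which overlapped (exact permutation p = 1).

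**Figure D3:**
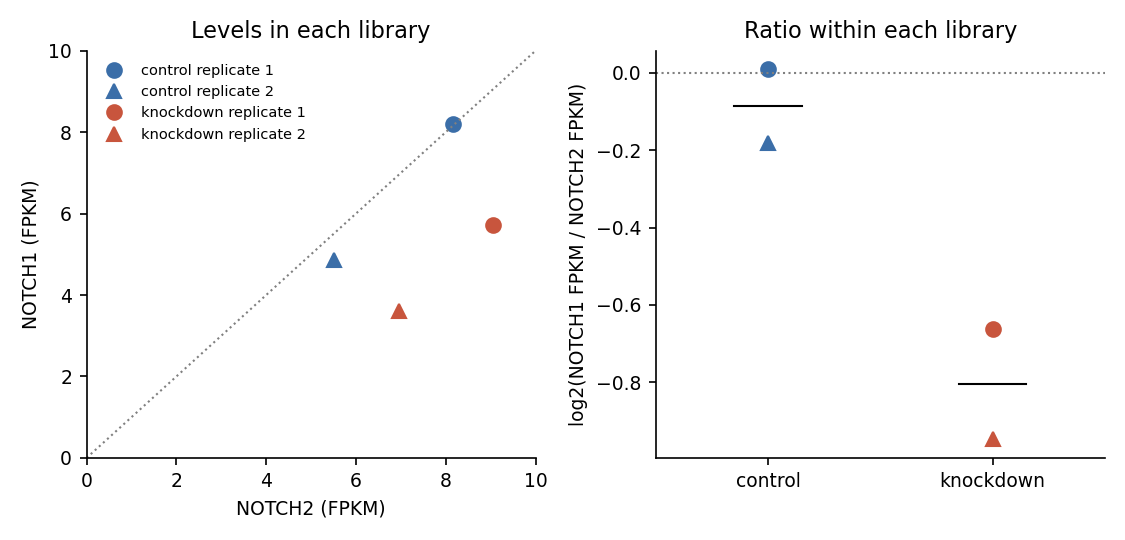
Left, NOTCH1 against NOTCH2 (FPKM) in each library, with equality dotted; right, the log2 ratio of the genes in each library, with group means as bars. Control libraries lie near equality and both knockdown libraries lie below it, although replicate 1 is higher than replicate 2 for both receptors in each group. The division of reads between NOTCH2 and NOTCH2NLA is uncertain.

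NOTCH3, a receptor best known from smooth muscle of vessels and also made by keratinocytes, stood at 0.67 and 0.40 FPKM in control and at 0.15 and 0.09 FPKM in knockdown cells. The groups did not overlap, and the ratio of the means was 4.46-fold lower, at a level below the filter for testing. The authors' deposited table gives NOTCH3 a log2 ratio of -2.15. NOTCH4, the fourth receptor, did not exceed 0.04 FPKM.

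In the nucleus, RBPJ had 2.67 and 2.95 FPKM in control and 4.61 and 4.95 FPKM in knockdown cells. The replicates lay close together and the groups were apart, a 1.70-fold higher mean in the knockdown. On the log2 scale the difference was 0.60 (SE 0.121, 95% interval 0.28 to 0.92), with an unadjusted p of 0.00508 and a limma adjusted p of 0.105, short of the threshold. Its difference stayed between 0.52 and 0.75 over 14 alternative settings, with an adjusted p between 0.103 and 0.335. Processed copies of RBPJ exist in the genome, and the 4 of them looked up (RBPJP2, RBPJP5, RBPJP6 and RBPJP7) did not exceed 0.04 FPKM. MAML1 had 9.97 and 8.09 FPKM in control and 11.55 and 9.87 FPKM in knockdown cells, overlapping (log2 difference 0.23, adjusted p = 0.427, and 0.09 to 0.36 on the log2 scale with 1 library left out). Its relative MAML2 had 7.99 and 6.44 FPKM in control and 5.66 and 5.08 FPKM in knockdown cells (adjusted p = 0.232), and MAML3 did not exceed 0.27 FPKM. The acetyltransferases EP300 and KAT2A, recruited with Mastermind, had overlapping groups (adjusted p = 0.457 and 0.384). RBPJ over MAML1 in the same library was 0.268 and 0.365 in control and 0.399 and 0.502 in knockdown cells, the knockdown ratios being the higher (exact permutation p = 0.333).

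Of the target genes, HES1 overlapped between the groups, and HEY1 was higher in the knockdown at a level near the filter. HES1 had 14.01 and 14.93 FPKM in control and 15.04 and 12.16 FPKM in knockdown cells. The control range lay inside the knockdown range (log2 difference -0.09, SE 0.139, 95% interval -0.46 to 0.28, limma adjusted p = 0.727), and the sign turned to 0.05 without knockdown replicate 2. HEY1 had 0.47 and 0.71 FPKM in control and 1.75 and 1.97 FPKM in knockdown cells, apart from each other at a low level. Only the knockdown group brought HEY1 past the filter, so being tested already required a difference. The ratio of the means was 3.15-fold, the log2 difference 0.85 (SE 0.166) and the adjusted p 0.102; the log2 difference grew to 1.53 with a pseudocount of 0.1, with no call (adjusted p = 0.111). The lowest adjusted p of HEY1 over 14 alternative settings was 0.0890 and the highest 0.318.

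Other direct targets had lower values in the knockdown. NRARP, a feedback inhibitor that is itself switched on by Notch, had 13.10 and 12.65 FPKM in control and 5.75 and 4.25 FPKM in knockdown cells, a 2.58-fold lower mean (log2 difference -1.22, SE 0.158, limma adjusted p = 0.0723). HES4 had 6.58 and 5.52 FPKM in control and 3.22 and 2.36 FPKM in knockdown cells (log2 difference -0.90, adjusted p = 0.0982). HES7, known as the oscillating repressor of somite formation, had 3.97 and 4.18 FPKM in control and 1.93 and 1.28 FPKM in knockdown cells (log2 difference -0.97, adjusted p = 0.0923). For these 3 genes the knockdown range lay wholly below the control range, as it did for 19.2% of all tested genes. None of the 3 passed the threshold under any of the settings tried, with a lowest adjusted p of 0.0517 for NRARP under median centring. HES2, named after its values were seen, had 9.27 and 1.73 FPKM in control and 1.82 and 1.07 FPKM in knockdown cells, so control replicate 1 alone sets its mean, and its log2 difference of -1.13 became -0.18 without that library. HEY2 did not exceed 0.26 FPKM, and HES5 and HEYL were listed at 0 in all libraries. In this list of 9 genes 6 were tested, 0 passed in either direction, and the median log2 difference was -0.94, against 0.09 for all tested genes. The median was -0.48 without control replicate 1, and -0.90 with all libraries but without HES2.

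Set against HES1 in the same library, HES4 was 0.470 and 0.370 in control and 0.214 and 0.194 in knockdown cells; the windows of both genes hold the spaced pair shown above. NRARP over HES1 was 0.935 and 0.847 in control and 0.382 and 0.350 in knockdown cells. HEY1 over HES1 went the other way, 0.0335 and 0.0476 in control and 0.116 and 0.162 in knockdown cells. Since HEY1 passed the filter only through the knockdown group, a higher ratio was already favoured there. The control and knockdown ranges were apart for all 3 ratios, with an exact two-sided permutation p of 0.333 for each, the smallest possible here, and 0.400 after adjustment over the 6 ratios. The NRARP window holds no TGGGAA, and neither does that of HES7.

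**Figure D4:**
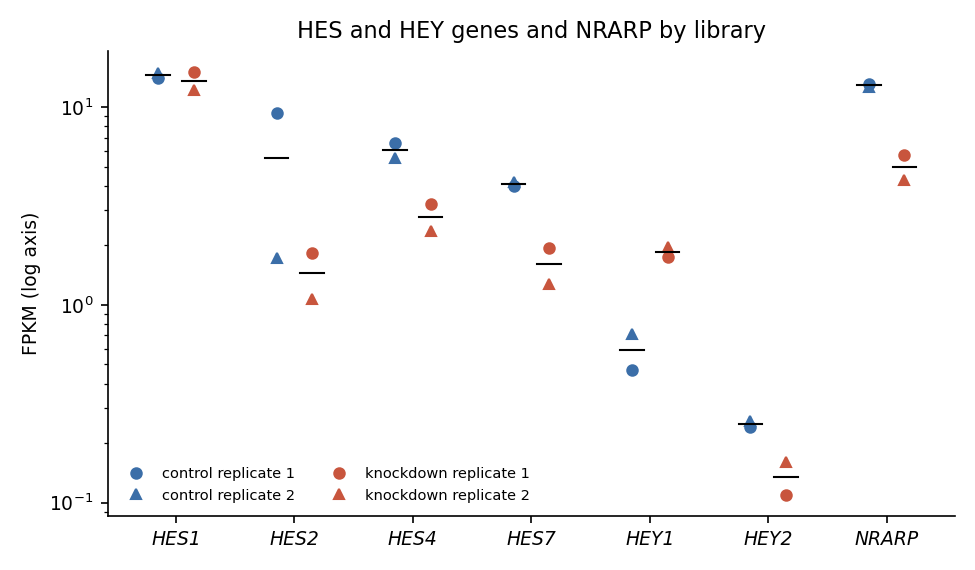
FPKM (log axis) of HES1, HES2, HES4, HES7, HEY1, HEY2 and NRARP in each library, with group means as bars. HES1 overlaps between groups, HES4, HES7, HEY2 and NRARP lie lower in both knockdown libraries, HEY1 lies higher, and control replicate 1 of HES2 stands apart from its partner.

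The rest of the pathway was read from 10 lists by role, together 77 genes with the members, of which 60 were tested. Of these 60, 0 passed in either direction, where 0.25% of all tested genes were called. At an unadjusted p under 0.05, 7 were higher and 8 lower, and 5 and 8 among the 51 that are not members, where 14.8% of all tested genes were higher and 8% lower. The groups were fully apart for 26 of the 60, with 12 above and 14 below, against 54.8%, 35.6% and 19.2% of all tested genes. The median log2 difference was 0.01, and -0.06 to 0.06 with 1 library left out. In the plot of the pathway by role all 10 lists straddle 0.

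**Figure D5:**
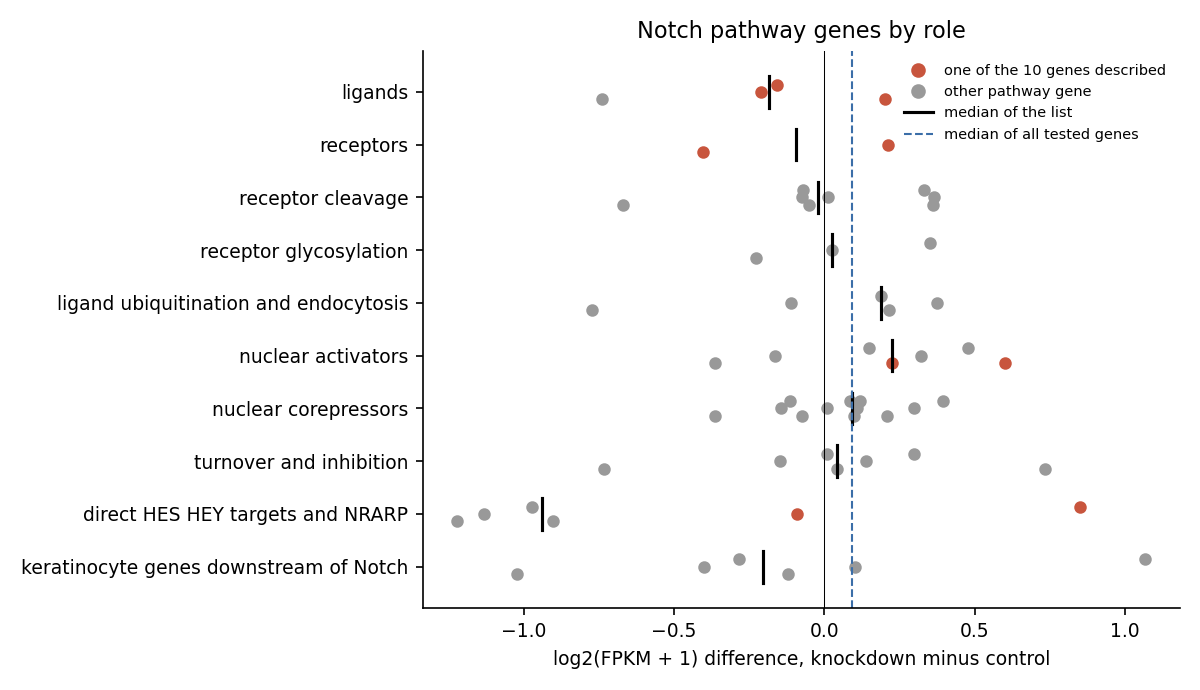
Difference in log2(FPKM + 1), knockdown minus control, of each tested Notch pathway gene, by role; red points are members, grey points other genes, black bars list medians, and the dashed line the median of all tested genes. The HES, HEY and NRARP list has the lowest median, -0.94 (-0.48 without control replicate 1), and holds the lowest point, NRARP at -1.22. A member on the other side is HEY1 at 0.85, which passed the filter only through the knockdown group.

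Among the enzymes that cut the receptor, ADAM10, the protease of the first ligand-dependent cut, had 16.50 and 12.75 FPKM in control and 9.83 and 7.79 FPKM in knockdown cells, a 1.66-fold lower mean (log2 difference -0.67, limma adjusted p = 0.141). Gamma-secretase subunits lay on the other side: PSEN2 had 2.14 and 2.06 FPKM in control and 2.91 and 3.08 FPKM in knockdown cells (adjusted p = 0.185), and NCSTN, nicastrin, had 19.35 and 18.62 against 25.67 and 22.73 FPKM (adjusted p = 0.188). Of the 8 tested cleavage genes 4 lay above 0 and 4 below, with a median of -0.02 that turned to 0.06 without control replicate 1. Of the enzymes that put sugars on the receptor, POFUT1, the O-fucosyltransferase, had 19.82 and 20.48 FPKM in control and 25.94 and 26.01 FPKM in knockdown cells (adjusted p = 0.149), while POGLUT1 and RFNG overlapped between groups (adjusted p = 0.607 and 0.923). LFNG, lunatic fringe, named after its values were seen, was below the filter with 0.41 and 0.47 FPKM in control and 0.94 and 0.82 FPKM in knockdown cells. Of the ligand-handling genes, the ubiquitin ligases NEURL1, NEURL1B and MIB1 gave adjusted p of 0.321, 0.393 and 0.477.

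ITCH, a ubiquitin ligase known to mark Notch for degradation, had the smallest p of the turnover list. It had 20.33 and 17.89 FPKM in control and 32.52 and 32.31 FPKM in knockdown cells, apart by more than the spread of the replicates (log2 difference 0.74, SE 0.114, limma adjusted p = 0.0812). DTX4, a Deltex ligase, was on the other side, with 12.09 and 12.36 FPKM in control and 8.29 and 5.81 FPKM in knockdown cells (log2 difference -0.73, adjusted p = 0.121). DTX3 overlapped between groups (adjusted p = 0.449). Of the co-repressors that hold RBPJ targets silent, KDM5A had 5.85 and 5.18 FPKM in control and 7.73 and 7.38 FPKM in knockdown cells (adjusted p = 0.155), and CTBP1 and TLE3 gave adjusted p of 0.273 and 0.421; 8 of 12 tested lay above 0, with a median of 0.09, the same as all tested genes, and of -0.06 without control replicate 2.

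Of 7 genes taken as downstream of Notch in keratinocytes 6 were tested and 0 passed. Their median log2 difference was -0.20, and -0.41 to -0.12 with 1 library left out. That median counts MYC, and the list was not sorted by the direction in which Notch acts on each gene. KRT1, which was not tested, was listed at 0 in all libraries. CDKN1A, the cell cycle inhibitor p21, had 8.27 and 7.90 FPKM in control and 6.69 and 6.25 FPKM in knockdown cells (limma adjusted p = 0.223). The knockdown range was the lower, as it was for IVL, involucrin, a precursor protein of the cornified envelope (log2 difference -1.02, adjusted p = 0.0723). KRT10 and TP63 differed by 0.10 and -0.12 on the log2 scale (adjusted p = 0.601 and 0.626), and the sign turned for KRT10 under quantile normalization and for TP63 without control replicate 1. MYC, named after its values were seen, had 34.31 and 1.38 FPKM in control and 11.62 and 28.26 FPKM in knockdown cells, a spread within each group that allows no comparison.

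The order of the replicates was the same in both groups for several members, as it was for many other genes. Replicate 1 stood above replicate 2 in both groups for NOTCH1, NOTCH2, NOTCH3, JAG1, DLL1 and MAML1; among tested genes this held for 5 of 9 members and for 41.8% of all genes. For NOTCH1 the ratio of replicate 1 to replicate 2 was 1.69 in control and 1.58 in knockdown cells, and for DLL1 1.41 and 1.20. RBPJ and HEY1 had the reverse order in both groups, which held for 24% of all tested genes. Their ratios were 0.905 and 0.931 for RBPJ and 0.662 and 0.888 for HEY1. The genes also differ in build: the longest GENCODE 29 transcript ran from 1578 bases (HES1) to 11389 bases (NOTCH2), and its GC content from 38.0% (RBPJ) to 64.0% (JAG2), against medians of 3202 bases and 47.9% over tested genes. The part of length or GC content in these replicate differences was not tested.

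HEY1 was the tested member with the largest log2 difference. By distance between centred log2 values over the 4 libraries, the tested genes nearest to HEY1 were SNORD101 (0.0215), AKR1C1 (0.0251) and GPAT3 (0.0405). With 4 libraries and 12411 genes such nearness describes these values only. In GENCODE 29 (GRCh38), HEY1 (ENSG00000164683) lies on chromosome 8 from 79764010 to 79767863, RBPJ (ENSG00000168214) on chromosome 4 from 26163455 to 26435131, NOTCH1 (ENSG00000148400) on chromosome 9 from 136494433 to 136545786, NOTCH2 (ENSG00000134250) on chromosome 1 from 119911553 to 120069626, and HES1 (ENSG00000114315) on chromosome 3 from 194136145 to 194138732. NOTCH3 (ENSG00000074181) lies on chromosome 19 from 15159038 to 15200981, JAG1 (ENSG00000101384) on chromosome 20 from 10637684 to 10673999, JAG2 (ENSG00000184916) on chromosome 14 from 105140981 to 105168824, DLL1 (ENSG00000198719) on chromosome 6 from 170282206 to 170306565, and MAML1 (ENSG00000161021) on chromosome 5 from 179732850 to 179777286. All 10 members are annotated as protein coding. JAG2 shares 469 exon bases with the processed transcript AL512356.1 on the same strand, and JAG1 shares 79 exon bases with the antisense gene AL050403.2; the other 8 members share no exon bases with another gene there.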

How the data were processed

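Per the labels' protocols, polyadenylated RNA from 5 µg of total RNA was sequenced as paired reads of 150 bases with a dUTP-marked second strand. The submitters' processing notes name StringTie 1.3.4d, HISAT2 2.0.4, cutadapt 1.9, edgeR and DESeq2 without their roles. The genome build, annotation and handling of multiply mapped reads were not given in the sources used here. The authors deposited FPKM values with 2 decimals, a fold (ratio) column of knockdown over control mean FPKM, and its log2. That log2 matched the recomputed ratio of means to 0.05 in 12381 of the 12388 tested genes where both means exceed 0. Of 58825 gene IDs, 58552 were found in GENCODE 29, whose transcript sets for NOTCH1 and NOTCH2 differ from those in the table. There were 0 columns without a sample, and 0 pairs of libraries with identical values.

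The table holds no counts. For genes with 1 transcript of at most 500 bases, at most 26.9% to 29.0% of low values were whole reads (to 0.1) at any depth tried, against medians of 18.3% to 18.7%, so whole reads were not recovered, depth is unknown and no counting interval is given. Genes above 0 numbered 22351 to 22780 per library. Values were tested as log2(FPKM + 1) with limma 3.58.1 (R 4.3.3), two-sided, with group as the only term, a mean-variance trend, no robust option and Benjamini-Hochberg adjustment; folds are ratios of mean FPKM. Fold changes on the log2 scale are understated for low genes. The fit was tested on simulated data, where the share of false calls lay somewhat above the threshold.

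Members, lists and tests were chosen with earlier results of these data known. Named genes are the members, pathway genes past the threshold, up to 3 others of smallest p per list, CDKN1A, KRT10, IVL, TP63 and WFDC21P. Also named are the 3 genes nearest in pattern to the tested member with the largest difference. One further gene that the rule names is not reported here. Alternatives changed the pseudocount, filter, scaling, limma options, replicate term and libraries.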

Additional observations from a re-analysis of the deposited data

How the results depend on the processing

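No member and no other pathway gene passed under any of the 15 alternative settings in which it was tested, and 130 of 132 values of the members kept their sign; the exceptions were NOTCH2 (-0.034 to 0.46 with 1 library left out) and HES1 (-0.23 to 0.053). Among the 30 other named genes, the sign turned for RFNG (-0.053 with median centring, -0.0012 and -0.0015 with mitochondrial genes left out, -0.031 to 0.085 with 1 library left out), for KRT10 under quantile normalization (-0.018), and with 1 library left out for TP63 (-0.26 to 0.018), POGLUT1 (-0.53 to 0.083) and MYC (-0.88 to 3.01). The median log2 difference of the tested members was -0.12 when genes under 5 FPKM were left out, which leaves 6 members, and -0.034 to 0.36 with 1 library left out.

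The background count of 31 called genes depended on the setting. It was 58 with a filter of 5 FPKM, 57 with quantile normalization (17 higher, 40 lower) and 37 with median centring (13 higher, 24 lower). With mitochondrial genes left out and the mean total of the other genes kept, it was 29 (11 higher, 18 lower). With those other genes scaled to a larger fixed total it was 18, where 17585 genes were tested, not 12411. Without limma's trend 17 genes were called, and without a filter 0 (3876 at an unadjusted p under 0.05). A fit with 1 library left out assumes that the lone library varies like the other group. The fit with the replicate number as a block called 0 (3791); in it the adjusted p of NOTCH1 was 0.115, with no call. Deviations of same-numbered libraries correlated at r = 0.124 across genes, which are not independent, and nothing in the labels says that the numbers pair the libraries. The setting with the total of the other genes kept, the list medians with 1 library left out, and the medians without HEY1 or HES2 were chosen after seeing the data.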
